A study of Mus musculus with 21 samples.

Results

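The early effect of retinoic acid (RA) was measured as the difference between 3 libraries of mouse embryonic stem cells (ESCs) given RA for 12 h (RA_12h) and 3 libraries of ESCs held without RA for the same time (noRA_12h), chosen by their titles. These are 6 of the 21 libraries of the series. The RA_12h cells were wild type ESCs that received 2 µM RA. The noRA_12h cells were wild type ESCs taken 12 h after LIF, a cytokine that sustains self-renewal, and the kinase inhibitors PD0325901 and CHIR99021 (together called 2i) had been withdrawn. Whether the RA_12h cells lost LIF and 2i as well is not stated. Before treatment, cells of all groups grew on gelatin in medium with serum, LIF and 2i. Starting cells (ESC_0h) and the cells with and without RA at 24 h (RA_24h and noRA_24h), 3 libraries each, were fitted in the same model and are quoted only as a starting level and as a later time. Nothing in the labels ties the numbered replicates to separate cultures, so p-values here reflect the spread among these samples alone and that spread may be technical.

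RA is a form of vitamin A that acts as a ligand inside the nucleus. It binds RA receptors, which sit on DNA together with retinoid X receptors at paired copies of a short hexamer and switch from repressing to activating nearby genes once the ligand is bound. In embryos RA is known for setting position along the body axis through the Hox genes, for starting meiosis in germ cells and for driving ESCs out of pluripotency. Cells limit the signal with CYP26 enzymes, which break RA down.

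Levels are TPM, which is scaled per transcript length, and changes are differences of log2(TPM + 1) between the RA_12h mean and the noRA_12h mean, written as log2 changes with their standard error (SE). Of 32285 genes listed, 13948 reached 1 TPM in 3 or more of the 15 time course libraries and were tested with limma. At a Benjamini-Hochberg adjusted p below 0.05, RA_12h was higher for 1428 genes, which is 10.2% of those tested, and lower for 1003, which is 7.19%. Changes of 2-fold or more were held by 304 higher genes (2.18%) and 147 lower genes (1.05%). A correction for GC content and length gave 1429 higher and 1837 lower genes. Of the called genes, 907 higher (6.5%) and 600 lower (4.3%) remained past the threshold in the same direction without each of the 6 libraries in turn. The 3 RA_12h values lay wholly above or below the 3 noRA_12h values for 5024 genes, or 36% of those tested.

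The spread was pooled over all 15 time course libraries, so SEs and p-values at 12 h also rest on the starting and 24 h libraries. Of these, RA_24h replicate 2 had 1788 genes at least 2-fold above the mean of the other 2 libraries of its group. Between the groups compared, the noRA_12h libraries varied more than the RA_12h libraries. Sequencing depth was 3.32 to 3.81 aligned gigabases in RA_12h and 3.26 to 3.91 in noRA_12h. Among genes tested, noRA_12h replicate 1 had 1164 at least 2-fold above the mean of the other 2 noRA_12h libraries and 22 at least 2-fold below it, whereas noRA_12h replicate 2 had 14 above and 895 below. No RA_12h library had more than 13 above or 15 below. The shift of noRA_12h replicate 1 went with exonic length (Spearman's correlation 0.311 across genes) and with low GC content (-0.589), and that of noRA_12h replicate 2 ran the other way (-0.285 and 0.661). Among the 5 genes with the widest gap between noRA_12h replicate 1 and the other 2 noRA_12h libraries, Usp9x, a deubiquitinase gene, had 1.62, 1.70 and 2.02 TPM in RA_12h, against 37.0, 3.04 and 6.93 TPM in noRA_12h. Kif5b, a kinesin motor gene, had 1.80, 1.47 and 1.61 TPM in RA_12h, against 27.5, 2.23 and 5.19 TPM in noRA_12h. Neither passed the test, nor did Trp53inp1, Snurf and Gm49527, the other 3. Without noRA_12h replicate 1, 1048 genes were higher in RA_12h (7.51%) and 805 lower (5.77%). Without noRA_12h replicate 2, 1486 were higher (10.7%) and 1244 lower (8.92%), and the genes lower by 2-fold or more numbered 399 in place of 147.

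**Figure D1:**
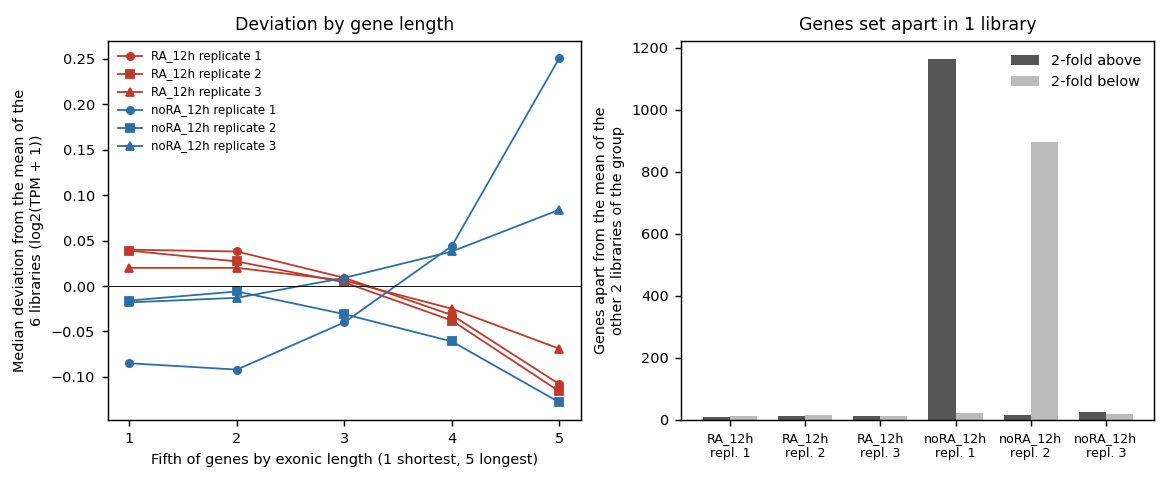
Left, the median deviation of each library from the mean of the 6 libraries, on the log2(TPM + 1) scale, for genes in 5 equal groups by exonic length from the shortest to the longest. Right, bars count the genes at least 2-fold above or below the mean of the other 2 libraries of the same group. In the group of the longest genes the RA_12h libraries sit at -0.108, -0.116 and -0.069 and the noRA_12h libraries at 0.251, -0.128 and 0.084.

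Gene length moved with the calls. Among the longest of 5 equal groups of genes by exonic length, 5.88% were higher in RA_12h and 10.8% lower, and among the shortest 11.79% were higher and 5.56% lower. Without noRA_12h replicate 1 the share lower among the longest was 7.64%, and without noRA_12h replicate 2 it was 17.33%. The part of this shift in the result of any long gene was not tested. A correction for GC content and length gave 1837 genes lower, and a covariate for the main axis of variation within groups gave 1882, so the counts of several gene lists below are also given with the correction or the covariate. The results therefore lead with genes that passed without each library in turn, unless they say otherwise. Counts for gene lists are to be set against the shares over all genes tested, 10.2% higher and 7.19% lower. A list near those shares held about as many calls as genes at large. Rose and fell mean higher or lower in RA_12h than in noRA_12h, not a change from ESC_0h. Some genes called lower stood above their ESC_0h level in RA_12h, and some called higher stood below it. For each gene below that is called risen or fallen and is given in all 6 libraries, the 3 RA_12h values lay wholly above or wholly below the 3 noRA_12h values.

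The labelled cells were checked against defining markers. The summed level of 6 ESC markers (Pou5f1, Sox2, Sall4, Lin28a, Utf1 and Tdgf1) was 4421 to 4522 TPM in RA_12h and 4452 to 5129 TPM in noRA_12h. Of these, Sox2 and Sall4 passed the test as lower, and Sall4 lost its call without noRA_12h replicate 1 (adjusted p = 0.0714) and without replicate 2 (adjusted p = 0.0976, limma). Cyp26a1, Stra8 and Cdx1, which mark an RA response, summed to 519.0 to 528 TPM in RA_12h and 10.1 to 14.2 TPM in noRA_12h. The 8 fibroblast markers summed to 10.7 to 14.6 TPM in RA_12h and 14.3 to 17.5 TPM in noRA_12h, with Lum at 0 in all 6 libraries. The 6 markers of 2-cell-like cells summed to at most 0.43 TPM in RA_12h and 0.718 TPM in noRA_12h, with Zscan4d, Zfp352 and Tcstv1 at 0 in all 6. In these bulk libraries a change in the share of cells that express a gene and a change in RNA per cell cannot be told apart.

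Promoters were searched for the paired hexamers that RA receptors are known to bind, and those with a match among the genes that rose by 2-fold or more are shown because they pair such a motif with a measured change. RefSeq promoter windows on GRCm38.p6, from 250 bases before a gene's start to 50 after it, were available for 10613 of the 13948 genes tested and for 226 of the 304 genes higher by 2-fold or more. Searched were the consensus hexamer AGGTCA, its variant with a changed start, GGGTCA, its variant with a changed middle, AGTTCA, and the variant with both, GGTTCA, as direct repeats with 5, 2 or 1 bases of any kind between them, on either strand. A repeat with a spacing of 5 stood in the windows of 2 of the 226 genes (0.885%), which were Cyp26a1 and Rarb, against 7 of the 10613 genes tested (0.066%) and 0.0974% of all 32851 windows. A repeat with a spacing of 2 stood in 2 of the 226 (0.885%), which were Tinagl1 and Ano1, against 0.122% of the genes tested and 0.268% of all windows. A spacing of 1 was found in 0 of the 226, against 0.292% of the genes tested and 0.222% of all windows. None of the 106 matched genes that fell by 2-fold or more held any of these repeats. The windows of Stra8, Hoxa5, Stra6, Ffar3, Aqp3, Aurkc and Lgals9, all among the 12 highest genes, held none, which says only that these letters are not in these windows.

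The windows of Cyp26a1 (chr19:37697558-37697857, plus strand) and Rarb (chr14:16575427-16575726, minus strand) follow from 5′ to 3′ along each gene, with the hexamers in capitals. In Cyp26a1 the repeat lies on the opposite strand, from -32 to -16 counted from the annotated start at 0, and in Rarb on the gene's own strand from -53 to -37. The Rarb window lies inside the gene as measured (chr14:16430839-16819156, minus strand), so its start is an internal one. Levels are per gene and cannot tie the change of Rarb to that start.
Cyp26a1: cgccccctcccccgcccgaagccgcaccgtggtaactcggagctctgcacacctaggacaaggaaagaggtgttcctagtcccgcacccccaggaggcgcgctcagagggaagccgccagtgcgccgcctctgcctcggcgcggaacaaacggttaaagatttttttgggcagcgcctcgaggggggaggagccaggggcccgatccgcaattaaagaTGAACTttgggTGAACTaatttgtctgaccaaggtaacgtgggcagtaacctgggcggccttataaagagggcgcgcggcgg
Rarb: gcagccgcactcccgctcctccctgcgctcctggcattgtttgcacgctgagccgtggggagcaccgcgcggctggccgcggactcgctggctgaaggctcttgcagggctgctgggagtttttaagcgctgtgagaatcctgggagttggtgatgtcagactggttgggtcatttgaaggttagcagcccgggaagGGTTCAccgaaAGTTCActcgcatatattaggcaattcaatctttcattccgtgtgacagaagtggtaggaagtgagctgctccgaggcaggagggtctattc
The matches of Tinagl1 (window chr4:130175073-130175372, minus strand) and Ano1 (window chr7:144738524-144738823, minus strand), with the hexamers in capitals, were these.
Tinagl1: GGGTCActGGGTCA
Ano1: TGACCCcgTGACCC
Tinagl1, which encodes a secreted matrix protein, stood at 82.8, 73.7 and 71.2 TPM in RA_12h, against 13.97, 15.8 and 12.8 TPM in noRA_12h. Ano1, a chloride channel gene, stood at 11.6, 13.6 and 11.8 TPM in RA_12h, against 1.70, 2.48 and 2.23 TPM in noRA_12h. Both were named after their values were seen, because they hold a match.

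Genes that take up, make, store and destroy retinoids come first. Of 14 retinoid handling genes tested, 6 rose, 0 fell and 8 did not pass, with a median log2 change of 0.36 against -0.01 over all genes tested, and the count was the same without noRA_12h replicate 1 or 2. Stra6, the membrane receptor that takes up retinol, stood at 26.9, 26.8 and 25.4 TPM in RA_12h, against 0.735, 1.07 and 0.767 TPM in noRA_12h, a log2 change of 3.88 ± 0.12 (adjusted p = 3.4e-10). The carriers of RA itself, Crabp1 and Crabp2, had log2 changes of 0.22 ± 0.11 and 0.20 ± 0.11 and did not pass (adjusted p = 0.226 and 0.23).

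On the side of synthesis and storage, Dhrs3, which reduces retinaldehyde back to retinol, was the only 1 of 6 members past the threshold. It stood at 37.6, 39.1 and 34.7 TPM in RA_12h, against 4.52, 4.83 and 6.80 TPM in noRA_12h, 6.9-fold higher. The RA-making enzymes Aldh1a2 and Aldh1a3 averaged 1.05 and 0.505 TPM in RA_12h and 1.37 and 0.867 TPM in noRA_12h, without passing. All 3 breakdown enzymes rose. Cyp26a1 had 122, 121 and 119.0 TPM in RA_12h, against 0.461, 0.191 and 0.765 TPM in noRA_12h (log2 change 6.39 ± 0.13, adjusted p = 5.86e-12). Cyp26b1 had 3.26, 3.45 and 3.88 TPM in RA_12h, against 0, 0.0761 and 0.0949 TPM in noRA_12h. Cyp26c1 (chr19:37685581-37693398), the neighbour of Cyp26a1 (chr19:37697798-37701536), had 1.04, 1.46 and 0.984 TPM in RA_12h and was listed at 0 in all 3 noRA_12h libraries. No library of the 2 groups overlapped for any of the 3. In ESC_0h Cyp26b1 averaged 0.0554 TPM and Cyp26c1 was at 0. Genes near 0 without RA could enter the test only through libraries with RA and could hardly come out lower. The count of breakdown enzymes, and with it that of the retinoid list, is therefore partly set by the filter.

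Among the receptors, Rarb rose and the more abundant RA receptors did not pass the test. Rarb stood at 2.02, 2.20 and 2.25 TPM in RA_12h, against 0.0615, 0.0499 and 0.0588 TPM in noRA_12h (log2 change 1.58 ± 0.17, adjusted p = 2.67e-05). Rarg, at 308, 317 and 310 TPM in RA_12h and 258, 290 and 260 TPM in noRA_12h, had a log2 change of 0.21 ± 0.07 (adjusted p = 0.0528). Rara had a log2 change of 0.21 ± 0.10 and Rxra one of -0.12 ± 0.14. The retinoid X receptor gene Rxrg, listed at 0 in ESC_0h, was low in both groups, with 2.03, 1.17 and 1.76 TPM in RA_12h, against 0.796, 0.415 and 0.404 TPM in noRA_12h. Its call was lost with the GC and length correction.

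Of all 24 nuclear receptor and cofactor genes tested, 4 rose and 5 fell, and without noRA_12h replicate 1 the counts were 4 and 3. They were 4 and 8 with the correction for GC content and length and 6 and 10 with the covariate. Nr6a1, also called germ cell nuclear factor and known as a repressor of Pou5f1 in embryos, stood at 53.4, 56.4 and 54.2 TPM in RA_12h, against 21.9, 19.5 and 21.5 TPM in noRA_12h, 2.61-fold higher. Nr5a2, which activates naive pluripotency genes, fell to 12.1, 11.1 and 11.7 TPM in RA_12h, against 23.3, 17.8 and 19.2 TPM in noRA_12h. Pou5f1 itself stood at 3100.0, 3001 and 3001 TPM in RA_12h and at 2882, 3393 and 3081 TPM in noRA_12h and did not pass (adjusted p = 0.763).

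**Figure D2:**
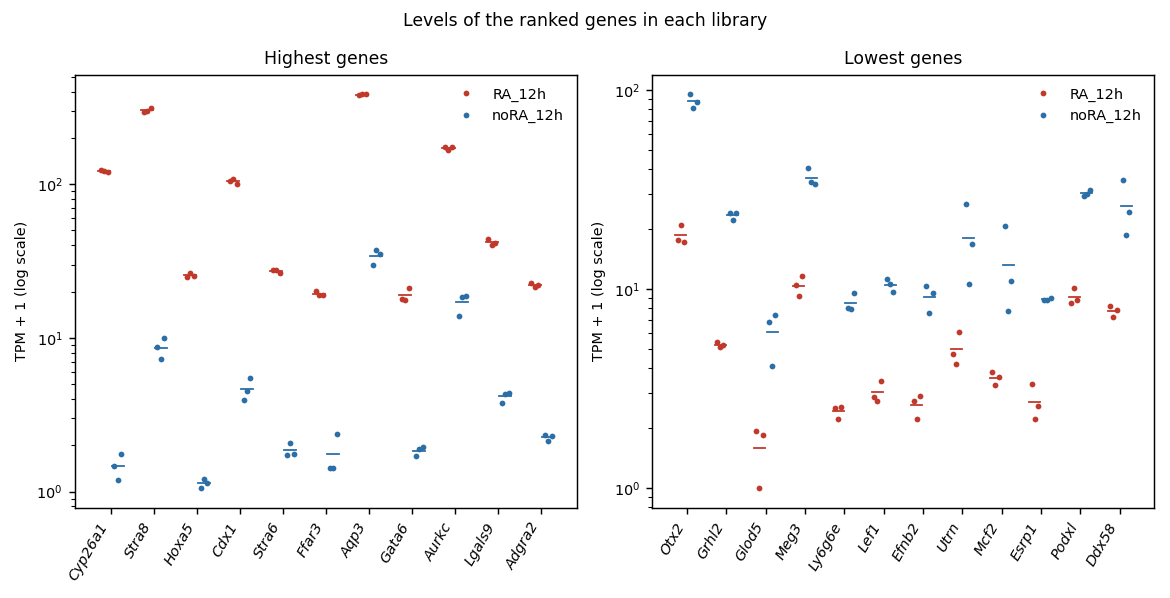
Points show TPM + 1 on a log axis in each of the 3 RA_12h and 3 noRA_12h libraries, and lines the mean of each group, for 11 of the 12 highest genes and the 12 lowest that passed without each library in turn. The ranking took only genes whose groups do not overlap. The 3 noRA_12h libraries lie far apart for Utrn, Mcf2 and Ddx58.

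Genes were ranked if they passed in every such fit and their 3 RA_12h values did not overlap the 3 noRA_12h values. Predicted gene models and genes at 0 in a group were left out. Among the 12 highest were Cyp26a1, Stra8, Hoxa5, Cdx1, Stra6, Ffar3, Aqp3, Gata6, Aurkc, Lgals9 and Adgra2. Aurkc, an Aurora kinase known from meiosis, stood at 172, 167 and 173 TPM in RA_12h, against 12.9, 17.4 and 17.9 TPM in noRA_12h (log2 change 3.34 ± 0.11, adjusted p = 3.4e-10). Lgals9, which encodes galectin-9, stood at 42.7, 39.4 and 40.5 TPM in RA_12h, against 2.77, 3.30 and 3.41 TPM in noRA_12h. Adgra2, an adhesion receptor known as a WNT7 coreceptor in brain vessels, stood at 21.8, 20.5 and 21.0 TPM in RA_12h, against 1.35, 1.15 and 1.29 TPM in noRA_12h. These 3 were 10.6-fold, 12.9-fold and 16.7-fold higher.

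The 12 lowest genes by the same rule were Otx2, Grhl2, Glod5, Meg3, Ly6g6e, Lef1, Efnb2, Utrn, Mcf2, Esrp1, Podxl and Ddx58. Podxl, which encodes podocalyxin, a sialomucin that coats the apical face of epithelia, fell to 7.53, 9.07 and 7.84 TPM in RA_12h, against 28.3, 29.2 and 30.5 TPM in noRA_12h (log2 change -1.73 ± 0.09, adjusted p = 4.24e-08). Efnb2, which encodes the signalling ligand ephrin-B2, fell to 1.73, 1.22 and 1.90 TPM in RA_12h, against 9.36, 6.54 and 8.49 TPM in noRA_12h. Utrn, the dystrophin relative utrophin, had 3.73, 3.21 and 5.09 TPM in RA_12h, against 25.6, 9.599 and 15.9 TPM in noRA_12h. Mcf2, an exchange factor for small GTPases, had 2.82, 2.28 and 2.59 TPM in RA_12h, against 19.7, 6.75 and 9.96 TPM in noRA_12h. For Utrn and Mcf2 the highest value is that of noRA_12h replicate 1 and the lowest of the noRA_12h values that of replicate 2, the pair of libraries that stand apart.

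Homeobox genes give cells their position along the body axis. Of 20 Hoxa and Hoxb genes tested, 19 rose and 1, Hoxa11, did not pass, and the same counts held without noRA_12h replicate 1 or 2. Of 9 Hoxc and Hoxd genes tested, 0 passed in either direction with limma, and 2 had an unadjusted p below 0.05. Members near 0 without RA could enter the test only through libraries with RA, so the Hoxa and Hoxb count is partly set by the filter. The counts of these lists are therefore not on an equal footing. Along the Hoxa cluster the RA_12h means, comparable per length, were 3.63 TPM for Hoxa2, 6.97 for Hoxa3, 9.76 for Hoxa4, 24.6 for Hoxa5, 0.84 for Hoxa6, 15.4 for Hoxa7, 1.48 for Hoxa9 and 5.57 for Hoxa10. The level did not fall steadily from Hoxa2 to Hoxa10, with Hoxa5 and Hoxa7 the highest of these. Hoxa6, Hoxb1, Hoxb5 and Hoxb6 were listed at 0 in all 3 noRA_12h libraries and averaged 0.84, 0.449, 4.18 and 1.97 TPM in RA_12h. Strand is not stated for these libraries, so levels of Hox genes that overlap antisense transcripts are uncertain. Hoxc4, the highest Hoxc gene in RA_12h, had 2.96, 3.42 and 3.97 TPM in RA_12h and 2.73, 3.31 and 1.87 TPM in noRA_12h, which overlap.

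Of 12 TALE homeobox genes tested 3 rose and 1 fell, and without noRA_12h replicate 1 the counts were 2 and 2. Meis and Pbx proteins, which belong to this class, bind DNA together with Hox proteins. Meis1 stood at 7.04, 7.60 and 8.07 TPM in RA_12h, against 1.89, 2.25 and 2.44 TPM in noRA_12h (log2 change 1.43 ± 0.13, adjusted p = 4.39e-06). Pbx2 stood at 99.1, 104 and 98.6 TPM in RA_12h, against 55.6, 68.5 and 62.1 TPM in noRA_12h. Irx2 and Tgif2 passed too, but lost the call when libraries were left out, Tgif2 in every fit but that without noRA_12h replicate 1, and with most other settings.

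Transcriptional repressors silence other programmes. Of 16 repressors and corepressors tested, 6 rose and 2 fell, with a median log2 change of 0.21, and without noRA_12h replicate 1 the counts were 5 and 1. Zfp703, a corepressor of the NET family, stood at 11.1, 10.9 and 10.3 TPM in RA_12h, against 0.159, 0.274 and 0.51 TPM in noRA_12h (log2 change 3.17 ± 0.13, adjusted p = 3.1e-09). Hic1, a zinc finger repressor, stood at 7.18, 7.42 and 7.01 TPM in RA_12h, against 0.804, 1.08 and 1.19 TPM in noRA_12h. The Groucho corepressor family divided, with Tle2 at 2.34, 1.88 and 2.27 TPM in RA_12h, against 0.196, 0.316 and 0.755 TPM in noRA_12h, and Tle4 lower, at 45.1, 49.5 and 47.4 TPM in RA_12h, against 114, 89.9 and 108 TPM in noRA_12h.

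RA is given to ESCs to start differentiation, so lineage factors were counted next. Both caudal genes tested, Cdx1 and Cdx2, rose, and of 7 streak and mesoderm factors tested 4 rose and 1 fell. Cdx1 averaged 103.6 TPM in RA_12h, 3.66 TPM in noRA_12h and 64.5 TPM in ESC_0h, so noRA_12h lay farther from the starting level than RA_12h did. T, the brachyury gene of the primitive streak, stood at 3.30, 3.63 and 4.30 TPM in RA_12h, against 0.454, 1.02 and 0.716 TPM in noRA_12h, and at 8.39 TPM on average in ESC_0h. Cdx2 stood at 1.57, 1.70 and 1.69 TPM in RA_12h, against 0.253, 0.164 and 0.111 TPM in noRA_12h, and at 5.65 TPM in ESC_0h. For the posterior genes T and Cdx2 RA_12h lay between noRA_12h and the starting cells. Kdr, which encodes the VEGF receptor of mesoderm and endothelium, fell to 5.57, 6.99 and 6.64 TPM in RA_12h, against 17.9, 15.0 and 16.5 TPM in noRA_12h.

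Of 21 endoderm genes tested, 6 rose and 5 fell, and without noRA_12h replicate 1 the counts were 5 and 3. Gata6, the factor that starts primitive endoderm, stood at 16.9, 16.8 and 20.1 TPM in RA_12h, against 0.696, 0.888 and 0.944 TPM in noRA_12h (log2 change 3.36 ± 0.14, adjusted p = 4.95e-09). Amn, which acts in visceral endoderm, was 3.03-fold higher, at 13.3, 14.5 and 12.4 TPM in RA_12h, against 3.78, 5.52 and 3.98 TPM in noRA_12h. The genes that follow Gata6 in primitive endoderm stayed low in both groups at 12 h. Gata4 had 1.16, 0.622 and 1.21 TPM in RA_12h, against 0.245, 0.442 and 0.67 TPM in noRA_12h, and did not pass (adjusted p = 0.0634). Sox17, Foxa2 and Pdgfra did not pass either. The 7 primitive endoderm markers summed to 20.7 to 24.6 TPM in RA_12h, most of it Gata6, and to 1.92 to 3.50 TPM in noRA_12h.

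Trophoblast and epithelial genes were split by kind. Of 13 trophoblast and epithelial transcription factors tested, 6 rose and 1, Grhl2, fell, while of 12 structural genes 1 rose and 4 fell. Tfap2c stood at 14.1, 13.9 and 13.96 TPM in RA_12h, against 5.29, 5.43 and 5.79 TPM in noRA_12h, and Gata3 at 5.40, 4.41 and 4.50 TPM in RA_12h, against 1.88, 2.20 and 1.53 TPM in noRA_12h. In ESC_0h Tfap2c averaged 44.3 TPM and Gata3 0.417 TPM. RA_12h thus lay below the starting level for Tfap2c, as for Cdx2 above, and over it for Gata3. The 6 defining trophoblast markers summed to 24.3 to 26.2 TPM in RA_12h and 9.67 to 11.3 TPM in noRA_12h. Of 11 neural factors tested 2 rose and 2 fell, or 0 and 4 with the correction for GC content and length, and of the 4 called without it only Neurog3, a proneural and pancreatic factor, passed without each library, at 0.084, 0.0665 and 0.152 TPM in RA_12h, against 1.49, 1.52 and 1.18 TPM in noRA_12h. Of 20 germline genes tested 6 rose and 1 fell, or 11 and 1 with the covariate for variation within groups. Rhox9, a reproductive homeobox gene, averaged 3.32 TPM in RA_12h and 1.27 TPM in noRA_12h. Tex101, a germ cell surface gene, stood at 21.5, 23.5 and 21.8 TPM in RA_12h, against 11.8, 14.5 and 14.01 TPM in noRA_12h.

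Pluripotency genes are ordered here by the state they mark. Genes of the formative and primed state, which ESCs enter when LIF and 2i are withdrawn, were 22 of those tested, of which 3 rose, 12 fell and 7 did not pass, with a median log2 change of -0.55, and without noRA_12h replicate 1 the counts were again 3 and 12. Grhl2, a factor that opens epithelial enhancers, was lower, at 4.41, 4.08 and 4.24 TPM in RA_12h, against 21.3 to 23.1 TPM in the 3 noRA_12h libraries. Its mean in ESC_0h was 1.59 TPM. Otx2 averaged 17.6 TPM in RA_12h, 86.9 TPM in noRA_12h and 3.76 TPM in ESC_0h, so for both genes RA_12h lay above the starting level. Lef1 had 1.88, 1.75 and 2.43 TPM in RA_12h, against 10.2, 9.597 and 8.69 TPM in noRA_12h, and averaged 18.2 TPM in ESC_0h. Of 13 naive genes, 3 rose and 3 fell. Nanog stood at 582, 594 and 594 TPM in RA_12h, against 413, 358 and 437 TPM in noRA_12h, 1.47-fold higher, and Tcl1 fell to 72.7, 74.9 and 74.3 TPM in RA_12h, against 100.8, 128 and 109 TPM in noRA_12h. The naive genes Klf4 and Esrrb had log2 changes of -0.07 ± 0.07 and -0.04 ± 0.10 and did not pass. Dppa2, of the general pluripotency list, was 2.21-fold higher in RA_12h, with 393, 365 and 396 TPM in RA_12h, against 175, 152 and 195 TPM in noRA_12h.

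**Figure D3:**
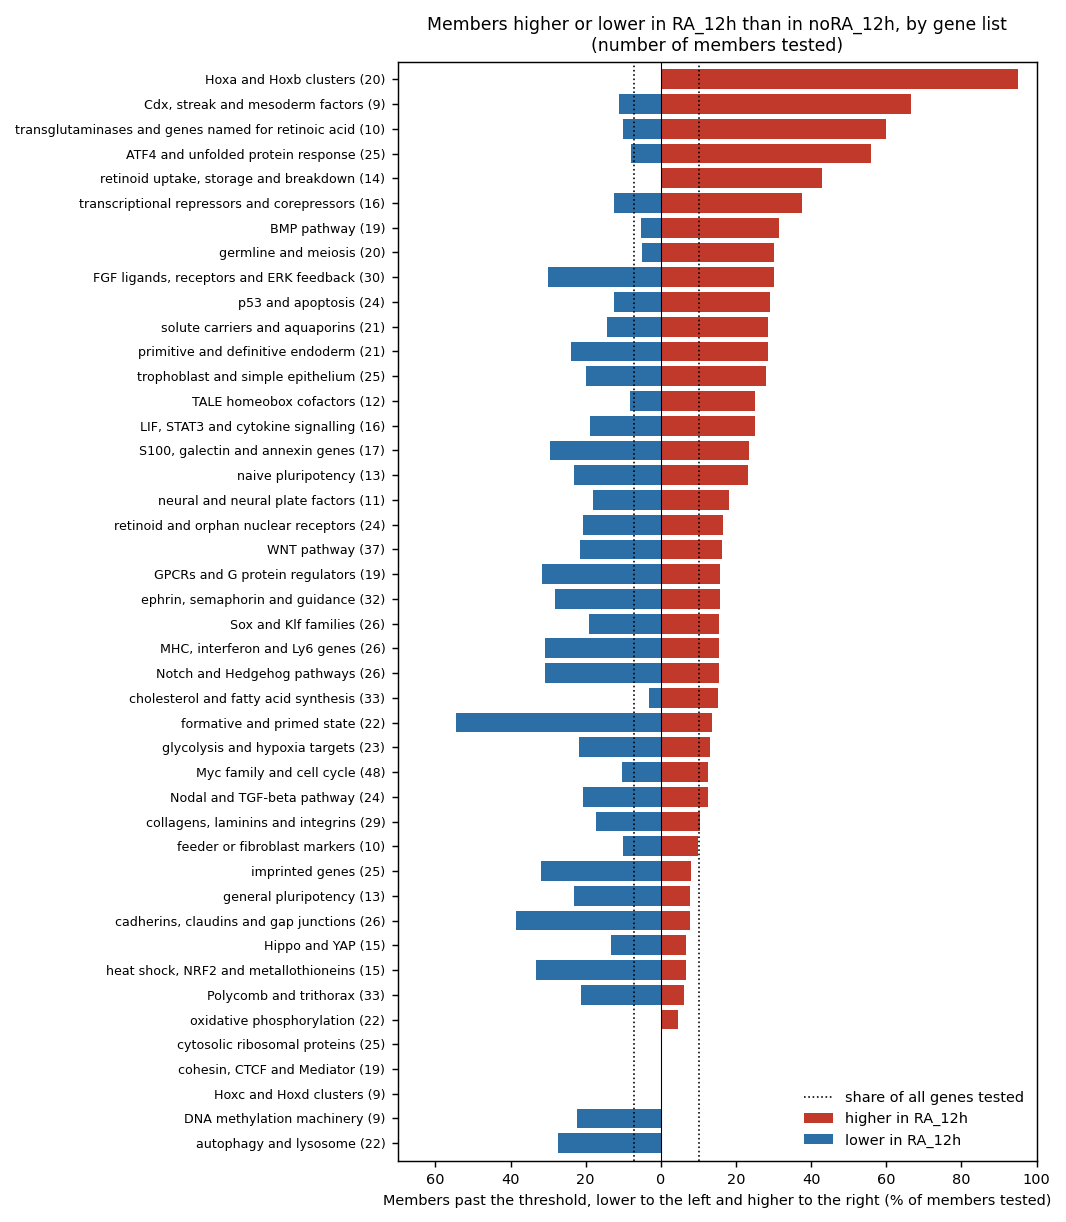
Bars give, for each gene list, the percentage of members tested that were higher (right) or lower (left) in RA_12h than in noRA_12h, with the number tested after each name. Dotted lines mark the shares over all genes tested, 10.2% higher and 7.19% lower. The Hoxa and Hoxb list reaches farthest to the right and the formative list farthest to the left, and bars are empty for ribosomal proteins, for cohesin, CTCF and Mediator and for Hoxc and Hoxd.

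FGF signalling through ERK pushes ESCs toward differentiation, and of its 30 genes tested 9 rose and 9 fell. Without noRA_12h replicate 1 the counts were 6 and 9, and with the correction for GC content and length 5 and 10. Fgf4, the main FGF ligand of ESCs, fell to 72.4, 70.1 and 72.6 TPM in RA_12h, against 118, 146 and 134 TPM in noRA_12h (log2 change -0.87 ± 0.08, adjusted p = 4.63e-06). Fgf15 fell to 3.13, 4.69 and 5.19 TPM in RA_12h, against 10.2, 10.3 and 11.5 TPM in noRA_12h.

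Genes that ERK activity is known to induce moved in both directions. Dusp4, a phosphatase that ERK induces against itself, fell to 12.1, 12.8 and 13.6 TPM in RA_12h, against 23.8, 27.1 and 26.1 TPM in noRA_12h. Its relative Dusp6 rose, with 132, 133 and 134 TPM in RA_12h, against 69.3, 79.1 and 79.9 TPM in noRA_12h. Among the ETS factors that ERK induces, Etv1 and Etv5 fell by 1.38 and 0.47 on the log2 scale and Etv4 had a log2 change of 0.60 ± 0.08. Dusp9, an ERK phosphatase outside the list and named after its values were seen, was 5.7-fold higher, at 245, 237 and 236 TPM in RA_12h, against 38.7, 46.4 and 40.7 TPM in noRA_12h. Erf, a repressor that ERK inactivates, also named after its values were seen, stood at 243, 234 and 238 TPM in RA_12h, against 68.6, 78.9 and 71.4 TPM in noRA_12h.

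Of 37 WNT genes tested 6 rose and 8 fell, the same as without noRA_12h replicate 1, or 4 and 12 with the correction for GC content and length. Ligands moved in both directions. Wnt3a stood at 2.78, 2.26 and 3.05 TPM in RA_12h, against 0.279, 0.232 and 0.267 TPM in noRA_12h (log2 change 1.55 ± 0.12, adjusted p = 9.97e-07). Wnt8a stood at 4.29, 4.79 and 3.66 TPM in RA_12h, against 0.934, 0.429 and 0.523 TPM in noRA_12h. Wnt6 fell, to 5.27, 3.57 and 4.22 TPM in RA_12h, against 10.03, 14.8 and 10.8 TPM in noRA_12h.

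Downstream of the WNT ligands, 0 of 12 transcription factor and target genes rose and 2, Lef1 and Axin2, fell, or 5 with the correction. Axin2, the common readout of WNT activity, had 11.6, 11.8 and 11.7 TPM in RA_12h, against 14.4, 16.3 and 16.2 TPM in noRA_12h, and 59.1 TPM on average in ESC_0h, whose medium held the WNT-activating inhibitor CHIR99021. Lgr4, a receptor for R-spondins, fell by 1.44 on the log2 scale, with 6.56, 6.68 and 6.57 TPM in RA_12h, against 27.6, 12.8 and 21.3 TPM in noRA_12h. Porcn, the enzyme that lipidates WNT ligands for secretion, was outside the list and named after its values were seen. It stood at 216, 213 and 213 TPM in RA_12h, against 55.6, 63.1 and 59.5 TPM in noRA_12h, 3.61-fold higher, and averaged 6.92 TPM in ESC_0h.

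Of 19 BMP genes tested 6 rose and 1, Id4, fell, and the counts were the same without noRA_12h replicate 1 or 2. The homeobox genes Msx2 and Dlx3, which answer to BMP in ectoderm, stood at 3.51, 4.15 and 3.49 TPM and at 3.02, 3.26 and 2.56 TPM in RA_12h, against 0.314, 0.396 and 0.718 TPM and 0.751, 0.661 and 0.451 TPM in noRA_12h. Id1, a direct target of SMAD1 and SMAD5, stood at 106, 104 and 97.8 TPM in RA_12h, against 45.9, 61.2 and 47.6 TPM in noRA_12h (log2 change 0.99 ± 0.12, adjusted p = 8.87e-05). The ligand Bmp6 was 3.77-fold higher at a low level, with 1.59, 1.24 and 1.51 TPM in RA_12h.

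Of 24 Nodal and TGF-beta genes tested 3 rose and 5 fell, with 3 lower without any 1 RA_12h library or noRA_12h replicate 3 and with 5 higher and 4 lower without noRA_12h replicate 2. With the covariate the counts were 6 and 8. Inhbb, which encodes the beta subunit of activin B, stood at 45.4, 45.3 and 46.6 TPM in RA_12h, against 13.9, 16.1 and 13.8 TPM in noRA_12h, and its antagonist follistatin, Fst, fell to 2.91, 2.62 and 2.56 TPM in RA_12h, against 6.28, 6.11 and 6.48 TPM in noRA_12h. Tgfb1 was lower as well, and Nodal, at 102.4, 100.6 and 100.7 TPM in RA_12h and 60.9, 81.1 and 69.5 TPM in noRA_12h, lost its call when a library was left out. Of 26 Notch and Hedgehog genes tested 4 rose and 8 fell, and without noRA_12h replicate 1 the counts were 4 and 6. The Hedgehog coreceptors Gas1 and Boc were 3.27-fold and 2.31-fold higher, while the target gene Gli1 fell to 5.59, 4.88 and 4.94 TPM in RA_12h, against 9.36, 9.80 and 10.1 TPM in noRA_12h.

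Of 16 LIF and cytokine genes tested 4 rose and 3 fell, and without noRA_12h replicate 1 the counts were 2 and 1. Gfra1, the receptor subunit for GDNF, stood at 6.31, 6.96 and 6.52 TPM in RA_12h, against 0.42, 0.305 and 0.46 TPM in noRA_12h (log2 change 2.45 ± 0.12, adjusted p = 1.23e-08). Pim1, a kinase gene that STAT3 activates, stood at 204, 205 and 198 TPM in RA_12h, against 69.3, 88.5 and 80.1 TPM in noRA_12h. Its paralog Pim2, outside the list and named after its values were seen, fell to 16.1, 16.6 and 17.1 TPM in RA_12h, against 55.0, 55.1 and 50.3 TPM in noRA_12h. Lifr, the LIF receptor gene, had 5.27, 4.29 and 4.45 TPM in RA_12h, against 17.1, 7.42 and 9.67 TPM in noRA_12h, and lost its call without any 1 of the 6 libraries other than noRA_12h replicate 2.

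**Figure D4:**
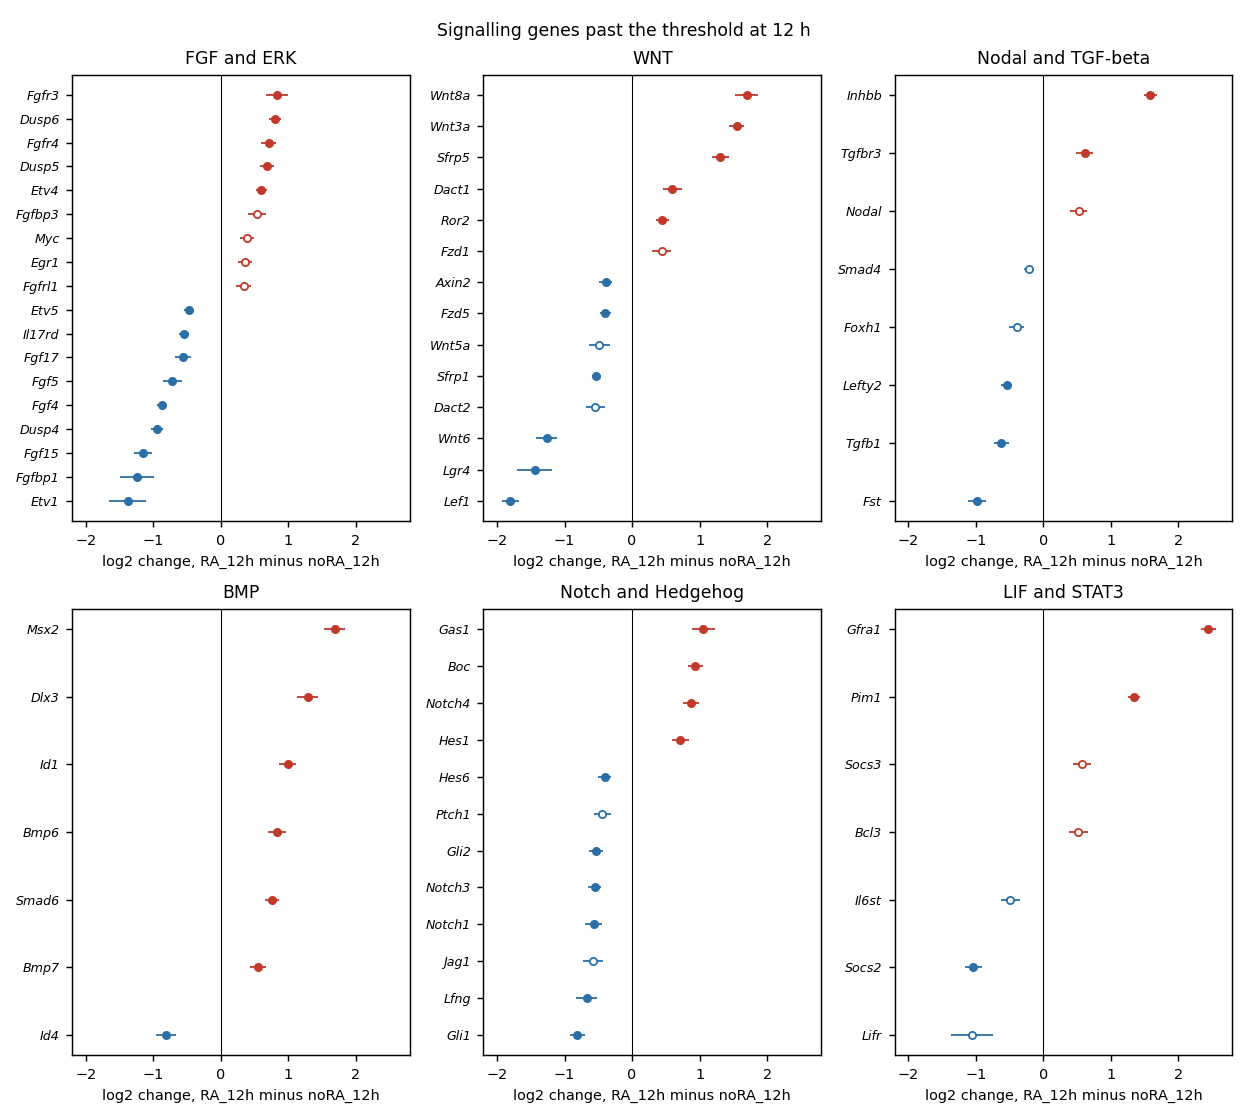
Points give the log2 change (RA_12h minus noRA_12h) with its SE for the members of 6 signalling lists that passed the threshold, red for higher and blue for lower. Filled points passed without each of the 6 libraries in turn, and open points did not. Gfra1 at 2.45 lies farthest to the right and Lef1 at -1.80 farthest to the left.

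Genes of the integrated stress response and the unfolded protein response rose together in number, each by less than 2-fold on the log2(TPM + 1) scale. The first is run by ATF4, the second by sensors of misfolded protein in the endoplasmic reticulum. Of 25 genes tested 14 rose, 2 fell and 9 did not pass, with a median log2 change of 0.31, and without noRA_12h replicate 1 the counts were 12 and 2. Nupr1, a stress cofactor, stood at 12.5, 14.02 and 10.02 TPM in RA_12h, against 5.04, 6.06 and 6.96 TPM in noRA_12h. Chac1, which degrades glutathione, stood at 13.2, 13.4 and 11.3 TPM in RA_12h, against 6.54, 7.63 and 6.03 TPM in noRA_12h. Xbp1, a factor that expands secretory capacity, stood at 191, 183 and 168 TPM in RA_12h, against 104, 100.7 and 106 TPM in noRA_12h (log2 change 0.80 ± 0.09, adjusted p = 3.09e-05).

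The stress genes did not all move. Asns, the asparagine synthetase gene and a standard ATF4 target, had 614, 607 and 584 TPM in RA_12h, against 672, 670 and 714 TPM in noRA_12h, and was called lower in the fit with all libraries. Hspa5, the main chaperone of the endoplasmic reticulum, did not pass (log2 change 0.25 ± 0.16, adjusted p = 0.311). For many members the noRA_12h level lay below that of the starting cells, as for Chac1 with 23.4 TPM and Nupr1 with 91.7 TPM in ESC_0h. Of 15 heat shock, NRF2 and metallothionein genes 1 rose and 5 fell, among them the metallothionein gene Mt1, at 227, 230 and 219 TPM in RA_12h, against 296, 338 and 279 TPM in noRA_12h.

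Autophagy and lysosome genes had 0 members higher and 6 lower of 22 tested, or 2 and 9 with the correction for GC content and length. Tfe3, a factor that activates lysosomal genes and, while nuclear, holds back the exit of ESCs from self-renewal, fell to 27.2, 28.0 and 24.4 TPM in RA_12h, against 59.2, 68.1 and 59.1 TPM in noRA_12h (log2 change -1.20 ± 0.10, adjusted p = 3.03e-06). Its relative Tfeb fell to 12.9, 12.1 and 14.3 TPM in RA_12h, against 17.7, 20.4 and 19.2 TPM in noRA_12h, a call that was lost with quantile normalization. Most lysosomal enzymes on the list did not pass.

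Carriers and channels move nutrients and water across the membrane. Of 21 solute carrier and aquaporin genes 6 rose and 3 fell. Aqp3, a water and glycerol channel, stood at 378, 383 and 384 TPM in RA_12h, against 28.9, 36.2 and 34.0 TPM in noRA_12h (log2 change 3.50 ± 0.11, adjusted p = 3.6e-10). Among amino acid carriers, the leucine carrier Slc43a1 was 3.28-fold higher, while Slc38a2, a glutamine and alanine carrier, fell to 44.8, 43.1 and 48.9 TPM in RA_12h, against 143, 87.1 and 117 TPM in noRA_12h. The arginine and lysine carrier Slc7a3 fell to 184, 173 and 179 TPM in RA_12h, against 362, 409 and 386 TPM in noRA_12h.

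In glycolysis 3 of 23 genes rose and 5 fell, or 4 and 9 with the correction for GC content and length. The glucose carrier Slc2a1 stood at 510, 522 and 505 TPM in RA_12h, against 314, 375 and 341 TPM in noRA_12h, while the phosphofructokinase genes Pfkp and Pfkm fell by 0.71 and 0.76 on the log2 scale. The enzymes that run the opposite step of gluconeogenesis, Fbp1 and Fbp2, are neighbours on chromosome 13 and were named after their values were seen. Fbp1 stood at 40.7, 38.5 and 38.4 TPM in RA_12h, against 5.41, 8.28 and 7.02 TPM in noRA_12h. Fbp2 stood at 112, 115 and 109 TPM in RA_12h, against 21.6, 25.3 and 25.9 TPM in noRA_12h. Both passed without each library, with log2 changes of 2.36 ± 0.17 and 2.16 ± 0.12.

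Housekeeping groups were counted for comparison. Of 25 ribosomal protein genes 0 passed with limma and 2 had an unadjusted p below 0.05, of 22 oxidative phosphorylation genes 1 rose and 0 fell, and of 33 cholesterol and fatty acid genes 5 rose and 1 fell. This last count was 3 and 1 without noRA_12h replicate 1, 6 and 4 with the correction for GC content and length and 12 and 4 with the covariate. Of 48 Myc and cell cycle genes 6 rose and 5 fell, with 3 and 4 without noRA_12h replicate 1 and 6 and 10 without noRA_12h replicate 2. The correction gave 3 higher and 15 lower and the covariate 6 and 14. With all libraries, the Myc and cell cycle counts lay near the shares over all genes tested, 10.2% higher and 7.19% lower. Mycn fell to 21.1, 21.4 and 25.3 TPM in RA_12h, against 70.5, 78.7 and 73.9 TPM in noRA_12h (log2 change -1.68 ± 0.09, adjusted p = 2.73e-08). Ccnd1, the cyclin that opens the cell cycle, fell to 53.2, 55.3 and 51.8 TPM in RA_12h, against 94.0, 108 and 104 TPM in noRA_12h. Of 24 p53 and apoptosis genes 7 rose and 3 fell, with 4 and 3 without noRA_12h replicate 1 and 7 and 6 with the correction. Sesn1 and Gdf15, both p53 targets, were 1.94-fold and 2.27-fold higher.

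Junctions hold epithelial cells together. Of 26 cadherin, claudin and gap junction genes tested 2 rose and 10 fell, with a median log2 change of -0.29, and without noRA_12h replicate 1 the counts were 1 and 8. The gap junction gene Gjb5 (chr4:127354809-127358181) fell to 5.87, 4.63 and 4.22 TPM in RA_12h, against 13.3, 16.7 and 14.7 TPM in noRA_12h. Its level in ESC_0h averaged 63.8 TPM. Esrp1, a splicing regulator of epithelial cells, fell to 2.32, 1.22 and 1.57 TPM in RA_12h, against 7.83, 7.82 and 8.03 TPM in noRA_12h, and Cdh3, which encodes P-cadherin, was 2.06-fold lower. E-cadherin, Cdh1, had a log2 change of 0.09 ± 0.06 and did not pass.

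Of 29 collagen, laminin and integrin genes 3 integrin genes rose and 5 matrix genes fell, and 4 of these 8 passed without each library in turn. The counts without noRA_12h replicate 1 were 2 integrin genes higher and 1 lower and 3 matrix genes lower. Itga3 stood at 110, 115 and 110 TPM in RA_12h, against 59.96, 66.8 and 62.1 TPM in noRA_12h, and Nid2, a basement membrane linker, fell to 180, 184 and 183 TPM in RA_12h, against 265, 274 and 269 TPM in noRA_12h. Of 32 guidance genes 5 rose and 9 fell, or 8 and 10 with the correction for GC content and length. Ephrin genes moved apart, since Efnb1 stood at 4.90, 3.91 and 3.24 TPM in RA_12h, against 1.12, 1.47 and 1.36 TPM in noRA_12h, while Efnb2 and the receptor gene Epha4 fell. Epha4 had 5.99, 5.52 and 5.29 TPM in RA_12h, against 22.1, 10.6 and 17.0 TPM in noRA_12h.

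Imprinted genes, which are expressed from 1 parental copy, had 2 members higher and 8 lower of 25 tested, with a median log2 change of -0.37. Without noRA_12h replicate 1 the counts were 2 and 7. Of 11 maternally expressed genes tested 1 rose and 5 fell, and of 14 paternally expressed genes 1 rose and 3 fell. At the Dlk1 and Meg3 locus on chromosome 12 the maternally expressed Meg3, Rian and Mirg fell and the paternally expressed Dlk1 rose. Parental copies were not told apart in these data. The maternally expressed RNA Meg3 (chr12:109541001-109571726) fell to 9.46, 8.19 and 10.6 TPM in RA_12h, against 39.4, 33.5 and 32.9 TPM in noRA_12h, and Mirg (chr12:109729764-109749460) to 3.88, 4.68 and 3.87 TPM in RA_12h, against 11.1, 12.2 and 9.21 TPM in noRA_12h. Rian (chr12:109603808-109661716) fell by 1.51 on the log2 scale, with 136, 52.97 and 95.0 TPM across the noRA_12h libraries. The paternally expressed Dlk1 (chr12:109452823-109463336) stood at 5.86, 6.09 and 4.71 TPM in RA_12h, against 1.29, 2.34 and 1.79 TPM in noRA_12h. All 4 passed without each library.

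Surface receptors include some of the ranked genes. Of 19 receptor and G protein regulator genes tested 3 rose and 6 fell, or 3 and 4 without noRA_12h replicate 2. The short-chain fatty acid receptor genes Ffar3 and Ffar2 lie close together on chromosome 7 (chr7:30854330-30856178 and chr7:30818348-30823775). Ffar3 stood at 19.21, 18.05 and 17.98 TPM in RA_12h, against 0.425, 0.422 and 1.39 TPM in noRA_12h (log2 change 3.52 ± 0.21, adjusted p = 1.11e-07), and Ffar2 at 2.48, 2.44 and 1.54 TPM in RA_12h, against 0.385, 0.147 and 0.314 TPM in noRA_12h. Of 26 MHC, interferon and Ly6 genes 4 rose and 8 fell. The counts were 4 and 6 without noRA_12h replicate 1, and with the correction for GC content and length 2 and 11. Ddx58, which encodes the RNA sensor RIG-I, fell to 7.195, 6.24 and 6.83 TPM in RA_12h, against 34.2, 17.6 and 23.3 TPM in noRA_12h, and Ly6e fell to 149, 137 and 118 TPM in RA_12h, against 218, 277 and 217 TPM in noRA_12h. The members of the MHC group that passed rose, as H2-Q7 did, though H2 genes are close copies and reads can be split between them. Of 17 S100, galectin and annexin genes 4 rose and 5 fell, and Anxa1, which encodes annexin A1, fell to 2.58, 3.32 and 2.47 TPM in RA_12h, against 14.3, 6.96 and 8.42 TPM in noRA_12h.

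Chromatin regulators set which genes stay silent or open. Of 33 Polycomb and trithorax genes 2 rose and 7 fell. Without noRA_12h replicate 1 the counts were 2 and 4, and with the covariate for variation within groups 4 and 12. Kdm2b, which brings a Polycomb complex to CpG islands, fell to 166, 169 and 164 TPM in RA_12h, against 246, 237 and 263 TPM in noRA_12h (log2 change -0.57 ± 0.07, adjusted p = 7.57e-05). Epop, a partner of PRC2, was 1.42-fold higher. Of 19 cohesin, CTCF and Mediator genes 0 passed with all libraries in limma and 5 had an unadjusted p below 0.05, against 5 called lower without noRA_12h replicate 2, the library with the lowest levels of long genes. The correction for GC content and length called 3 lower, and the covariate 2 higher and 8 lower.

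The DNA methylation list had 0 of 9 members higher and 2 lower, or 1 and 5 with the correction for GC content and length. Dnmt3l, the cofactor of the de novo enzymes, was lower, at 729.6, 730.8 and 705.3 TPM in RA_12h, against 1158, 1354 and 1221 TPM in noRA_12h. Dnmt3b was lower too, at 167, 174 and 166 TPM in RA_12h, against 246, 274 and 260 TPM in noRA_12h. In ESC_0h Dnmt3l averaged 159 TPM and Dnmt3b 79.8 TPM, so both stood above their starting level in RA_12h as well as in noRA_12h. Their relative Dnmt3a did not pass. Of 26 Sox and Klf genes 4 rose and 5 fell, or 4 and 8 without noRA_12h replicate 2 and 3 and 11 with the correction for GC content and length. Sox21 fell to 6.32, 6.32 and 6.68 TPM in RA_12h, against 10.99, 10.4 and 10.02 TPM in noRA_12h. Sox7, an endoderm and vessel factor, stood at 1.17, 1.85 and 1.71 TPM in RA_12h, against 0.563, 0.676 and 0.458 TPM in noRA_12h. Of 15 Hippo genes 1 rose and 2 fell, and Amotl1, which encodes the YAP-binding protein angiomotin-like 1, stood at 10.2, 9.84 and 12.0 TPM in RA_12h, against 5.14, 3.87 and 4.22 TPM in noRA_12h.

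Genes named for a response to RA, together with the transglutaminases, had 6 members higher and 1 lower of 10 tested, with a median log2 change of 0.46. Bhlhe40, also known as Stra13, a repressor of the circadian clock family, stood at 11.8, 12.7 and 13.7 TPM in RA_12h, against 4.70, 5.34 and 5.49 TPM in noRA_12h (log2 change 1.15 ± 0.08, adjusted p = 7.83e-07). Raet1e, a ligand of the natural killer receptor NKG2D, stood at 23.1, 26.6 and 27.3 TPM in RA_12h, against 13.8, 11.3 and 15.9 TPM in noRA_12h. In ESC_0h Bhlhe40 averaged 66.8 TPM and Raet1e 2.44 TPM, so RA_12h lay below the starting level for Bhlhe40 and above it for Raet1e. Tgm2, the transglutaminase best known as an RA target, lost its call when libraries were left out, with 7.88, 7.84 and 6.69 TPM in RA_12h, against 4.25, 6.47 and 4.53 TPM in noRA_12h. Tgm3 fell to 8.79, 8.59 and 8.13 TPM in RA_12h, against 18.7, 21.3 and 20.8 TPM in noRA_12h.

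Other genes that rose by 2-fold or more, named after their values were seen, lie outside the lists. Csn3, a casein gene, had 14.9, 14.7 and 10.99 TPM in RA_12h, against 0.612, 0.705 and 0.663 TPM in noRA_12h. Dmrt1, a factor of germ cell and testis fate, had 27.9, 29.4 and 29.9 TPM in RA_12h, against 3.98, 5.22 and 4.75 TPM in noRA_12h. Calcoco2, an autophagy receptor gene, rose to 712, 715 and 680.1 TPM in RA_12h, against 213, 245 and 249 TPM in noRA_12h. Cphx1, Cphx2 and Cphx3 on chromosome 14 are close copies whose reads may be split, and each was between 5.82-fold and 6.28-fold higher. Of the genes that fell, Trh, the thyrotropin-releasing hormone gene, stood at 189, 186 and 181 TPM in RA_12h, against 472, 549 and 502 TPM in noRA_12h, and the kinase gene Sgk1 at 91.5, 88.9 and 95.2 TPM in RA_12h, against 199, 189 and 201 TPM in noRA_12h.

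The ranked genes kept their direction at 24 h. All 12 highest genes had a positive log2 change between RA_24h and noRA_24h and all 12 lowest a negative one. The difference between the 2 effects was tested with the same model, and 13 of the 23 genes plotted differed. Aqp3 had a log2 change of 3.50 ± 0.11 at 12 h and 4.84 ± 0.11 at 24 h, and Gata6 one of 3.36 ± 0.14 at 12 h and 4.86 ± 0.14 at 24 h. Lgals9 went the other way, with 3.34 ± 0.15 at 12 h and 1.34 ± 0.15 at 24 h. Adgra2, Aurkc and Stra6 did not differ between the times past the threshold, with differences (24 h minus 12 h) of 0.00 ± 0.17, -0.41 ± 0.15 and 0.19 ± 0.17.

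**Figure D5:**
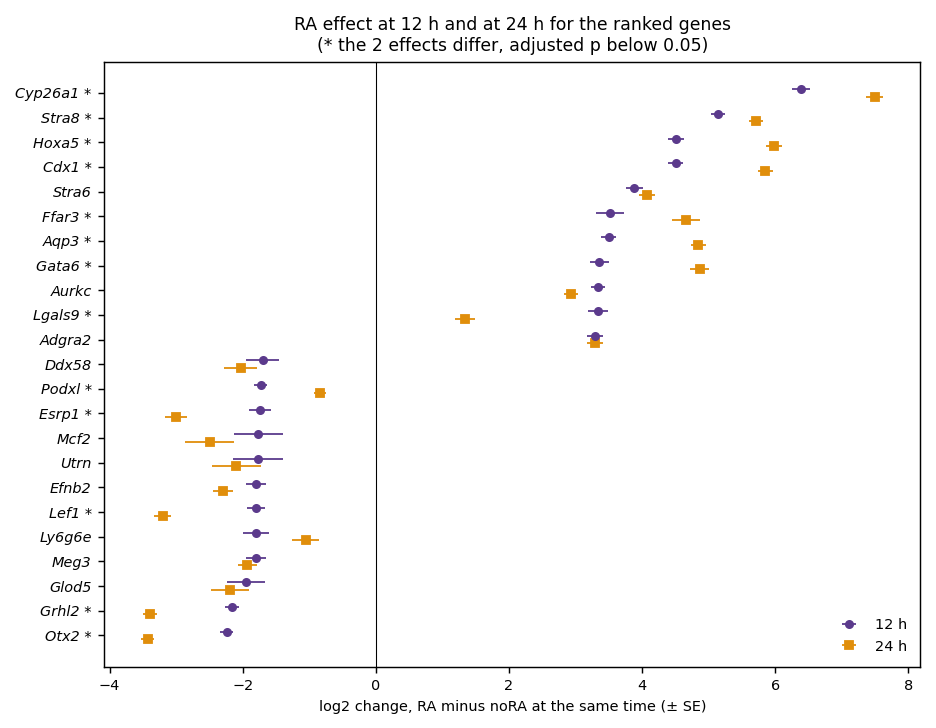
Points give the log2 change of RA minus noRA at the same time with its SE, at 12 h (circles) and 24 h (squares), for 11 of the 12 highest and all 12 lowest genes at 12 h. An asterisk marks the 13 genes whose effects differ between the times. Lgals9 and Podxl are nearer to 0 at 24 h, and Otx2, Grhl2, Lef1 and Esrp1 are farther below it.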

How the data were processed

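Polyadenylated RNA was read as paired ends on Illumina or MGI instruments, per the labels, with no instrument given for each library. The authors deposited 1 StringTie table per library, with coverage (a signal), FPKM and TPM per gene on mm10 coordinates, per the file headers. HISAT2 and StringTie are named in the submitters' processing notes, with versions not given in the sources used here. All levels are the TPM values the authors deposited, and their FPKM values served for an alternative. Coverage served only to estimate depth. Rows that share a gene ID (10 to 16 per table) were summed. Read counts are not used here, so no counting intervals are given.

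The test ran in limma 3.58.1 (R 4.3.3) on log2(TPM + 1) of genes that reached 1 TPM in 3 or more of the 15 time course libraries, with a mean-variance trend and 5 groups sharing 1 estimate of the spread. P-values were adjusted by the Benjamini-Hochberg method over all 13948 genes, and the threshold was 0.05. A pseudocount of 1 understates changes of low genes. The fit was tested on simulated data. Length and GC content from the reference annotation were matched for 99.92% of genes tested. The 6 libraries of the other experiment were not used. Some genes that meet the rule below are not reported here.

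The members, gene lists and tests were chosen with earlier results of these data known. The text names the 12 highest and 12 lowest genes that held without each of the 6 libraries and had no overlap between the groups. It also names up to 4 called members per list by size of change and members not called where a role needs them. The 5 genes with the widest gap for noRA_12h replicate 1 are named too. Asns, Axin2, Dusp6, Etv4, Etv5, Id4, Nodal, Wnt6 and the Hox genes beyond 4 were named after their values were seen. The replicate numbers were checked for pairing by the correlation of same-numbered deviations. Alternatives were other scalings, filters, pseudocounts, FPKM, a GC and length correction, library quality weights, a covariate for the main axis of within-group variation, the replicate block and each library left out.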

Additional observations from a re-analysis of the deposited data

Results flagged for a closer look

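The effect of RA differed between 24 h and 12 h for 13 of the 23 ranked genes plotted, by the limma test of the difference (effect at 24 h minus effect at 12 h, adjusted over all genes tested). Among genes higher with RA, the difference in log2 change was 1.10 for Cyp26a1 (adjusted p = 0.00279), 1.47 for Hoxa5, 1.35 for Cdx1, 1.35 for Aqp3 and 1.51 for Gata6. It was smaller and nearer to the threshold for Stra8 (0.58, adjusted p = 0.0393) and Ffar3 (1.14, adjusted p = 0.0384). Lgals9 was the only gene of these whose effect was smaller at 24 h, with a difference of -1.996 (adjusted p = 7.43e-05). Among genes lower with RA, the difference was -1.18 for Otx2, -1.24 for Grhl2, -1.40 for Lef1 and -1.27 for Esrp1, each a deeper fall at 24 h, and 0.89 for Podxl, a shallower one.

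The 24 h side rests on libraries that stand apart too. RA_24h replicate 2 had 1788 genes at least 2-fold above the mean of the other 2 RA_24h libraries, and RA_24h replicate 3 had 663 at least 2-fold below. Their part in these differences was not tested.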

How the results depend on the processing

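Of the 167 genes named by the rule 159 were called, and 139 of these kept call and direction under all 18 alternatives that could be run for them. No named gene reversed. Counts of genes moved more than single genes did. With library quality weights, 3003 genes were higher, 3465 lower and 296 lower by 2-fold. The GC and length correction gave 1837 lower, and the within-group axis as a covariate 1882 lower. A mean of at least 5 TPM left 187 genes higher by 2-fold, a pseudocount of 0.1 gave 512 higher and 278 lower by 2-fold, and FPKM gave 79 lower by 2-fold. Leaving out 1 library at a time gave 1048 to 1486 higher, 710 to 1244 lower, 294 to 325 higher by 2-fold and 110 to 399 lower by 2-fold, the last highest without noRA_12h replicate 2. Why the counts moved was not tested. Same-numbered libraries had correlations of 0.0122, 0.194 and -0.0269, so no clear pairing was seen. The check cannot exclude pairing, since the shifts of noRA_12h replicates 1 and 2 weigh on these deviations. The replicate block gave 1234 higher, 832 lower, 303 higher and 131 lower by 2-fold, and 4 named genes lost their call. With 3 libraries a group, 2 of them shifted in noRA_12h, small changes are uncertain.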

Other observations

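Genes that lie next to each other moved together in several places, chosen after their values were seen. Cyp26c1 and Cyp26a1, Ffar2 and Ffar3, and Fbp2 and Fbp1 were each both higher in RA_12h. Kit, the receptor of stem cell factor, stood at 43.8, 46.7 and 46.1 TPM in RA_12h, against 21.7, 17.6 and 19.2 TPM in noRA_12h. Snurf, listed near 0 in 4 of the 6 libraries, had 8.91 TPM in RA_12h replicate 2 and 6.74 TPM in noRA_12h replicate 1.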
